A study of Mus musculus with 9 samples.

Results

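The CIDE and perilipin genes encode proteins of the lipid droplet surface, and their transcripts were followed in mouse liver. The family was taken by symbol as Cidea, Cideb, Cidec and Plin1 to Plin5, which gave 8 genes of the 20972 symbols on the array and 10 of its 55681 probes. Cideb and Cidec had a pair of probes each and the other genes had 1. Of these, 9 probes of 7 genes were bright enough to be tested, and Plin1 was not. Liver RNA came from 9 male mice of 20 weeks of age, with 1 Agilent array per mouse and 3 mice per group. STAM-NON mice were C57BL/6J mice that received streptozotocin as newborns and a high-fat diet after weaning, and were not given insulin. STAM-INS mice had the same streptozotocin and diet and were injected under the skin with insulin glargine. Normal mice had neither streptozotocin, high-fat diet nor insulin and ate regular chow, so that streptozotocin and diet cannot be told apart in any comparison with them. STAM livers carry tumours at this age, and the sources used here do not state whether the pieces taken for RNA held tumour tissue.

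Liver cells store triglyceride in droplets with a single layer of phospholipid around a neutral lipid core. Perilipins coat that surface and control the access of lipases. CIDE proteins gather where droplets touch each other, where they let lipid pass from the smaller droplet to the larger, or, in the case of Cideb, help to load lipid onto lipoproteins for secretion. Plin1, Plin4, Cidec and, in the mouse, Cidea are best known from adipose tissue, while Cideb, Plin2, Plin3 and Plin5 are regular genes of liver, and fatty livers are known to switch on Cidea and Cidec.

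Values are given as centred log2 signal, that is, the log2 of the background-subtracted intensity less its 75th percentile on that array, so that 0 is the level at that percentile. Differences are on the log2 scale and relative to that scaling, under which the median over all tested probes was -0.13 in STAM-NON and -0.09 in STAM-INS relative to Normal, and 0.02 between the STAM groups. All STAM arrays lay on 1 slide and all Normal arrays on another, so slide and group cannot be told apart in any comparison with Normal, whereas the STAM-INS and STAM-NON arrays shared a slide. All 8 hepatocyte markers on the list were well above background on every array. STAM-NON 1 stood apart from the other 8 arrays. It was the only array on which Ucp1, the uncoupling protein of brown adipocytes, was well above background, at 0.84 against -5.25 or lower elsewhere. For the tested members the difference of STAM-NON from Normal without it is given beside the results. For the other lists the STAM-NON calls lost without it are named.

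In STAM-NON liver, Cidea was far above its level in Normal liver, and it was the single member to pass the threshold, which was a limma adjusted p of 0.05. Cidec had the second largest difference but missed the threshold, and the means of the 4 tested perilipins were within 0.79 of Normal. In all, 1 of 7 tested members was called in STAM-NON against Normal, where 15.6% of the 26277 tested probes were called. Those called as higher were 6.36% of the tested probes. At an unadjusted p under 0.05 there were 3 of 7 members (35.2% of all probes). The arrays of these groups did not overlap for 3 of the 8 members, which compares with 40.8% of all tested probes. Of the 3, Cidea and Cidec were higher (13.4% of probes) and Cideb was lower. In STAM-INS against Normal, 0 of 7 were called (13.6% of all probes), with 2 of 7 at an unadjusted p under 0.05 (32.2% of all probes), and the arrays did not overlap for 5 of 8 members (43.8%), 4 of them higher in STAM-INS (15.4%). In STAM-INS against STAM-NON, 0 of 7 were called (0.0951% of all probes), with 2 of 7 at an unadjusted p under 0.05 (8.79%), and the arrays did not overlap for 1 of 8 members (12.1%), Cidea, which was lower in STAM-INS (4.98%). Limma with trend and robust moderation also called 0 of 7 in both comparisons of STAM-INS. The median difference of the tested members was 0.27 in STAM-NON and 0.36 in STAM-INS relative to Normal, and 0.14 between the STAM groups.

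**Figure D1:**
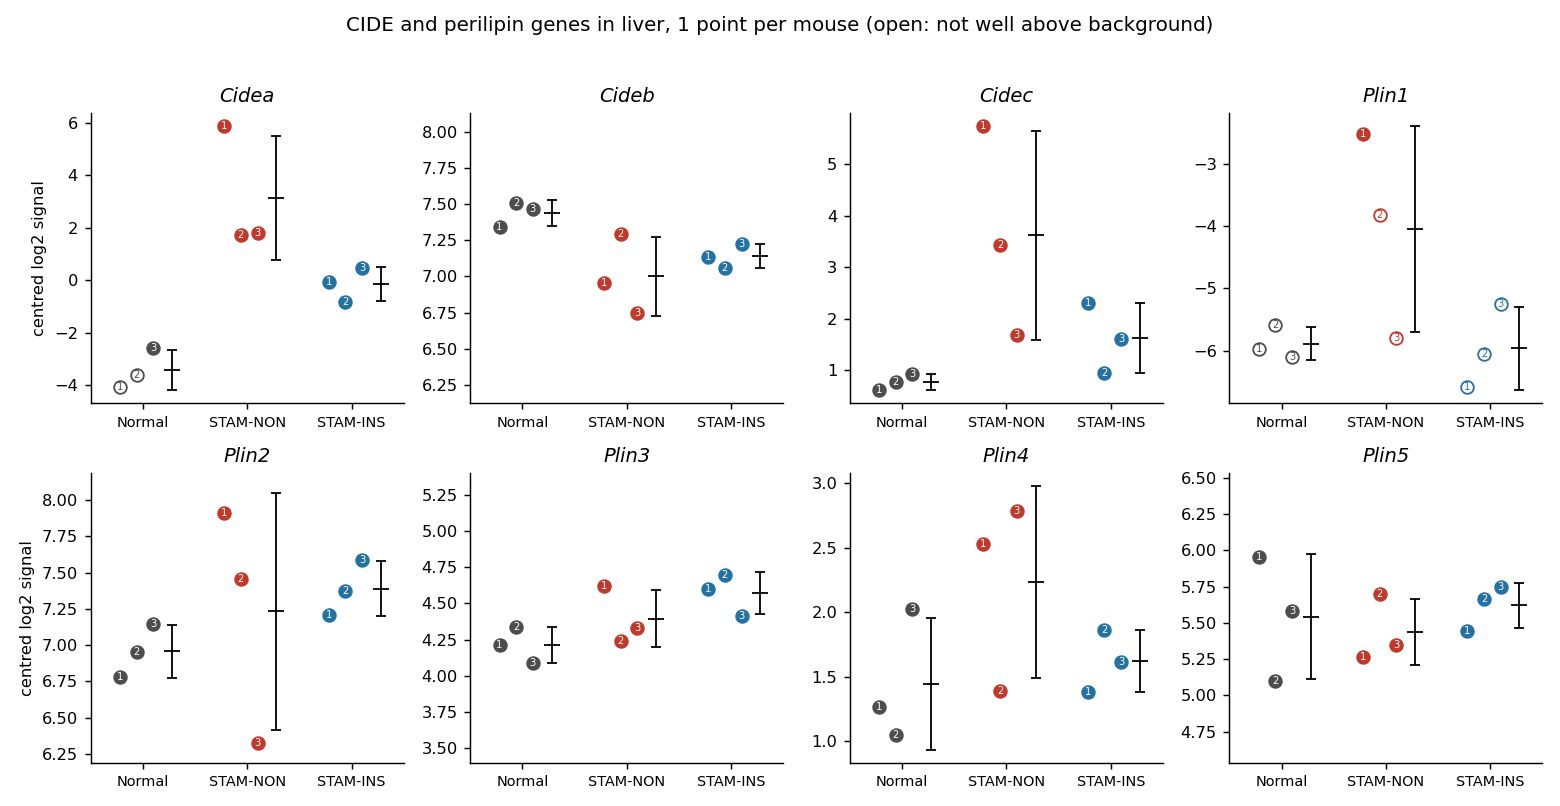
Centred log2 signal (y axis, log2 scale, a separate range per gene) of the 8 genes in Normal, STAM-NON and STAM-INS liver. Each numbered point is 1 mouse, open points were not well above background, and the bar beside each group is the mean with its SD (n = 3). For Cidea the groups form 3 steps, with STAM-NON at 1.72 to 5.87, STAM-INS at -0.84 to 0.48 and Normal at -4.08 to -2.57.

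Cidea, the CIDE protein of mouse brown fat, had a centred log2 signal of 5.87, 1.72 and 1.80 in STAM-NON mice 1, 2 and 3. In STAM-INS mice it was -0.06, -0.84 and 0.48. In Normal mice it was -4.08, -3.59 and -2.57, and only the last of these was well above background. The groups did not overlap and stood in the order STAM-NON, STAM-INS, Normal, with mouse 1 far above the other STAM-NON mice. The Normal mean was -3.41 ± 0.77, the STAM-INS mean -0.14 ± 0.66 and the STAM-NON mean 3.13 ± 2.37 (SD, n = 3 each). Cidea was thus 6.54 higher in STAM-NON than in Normal (SE 1.03, 95% interval 4.18 to 8.90, limma adjusted p 0.0111). The size of this difference depends on the background correction, since Normal was measured on 1 of 3 arrays, and after normexp it was 4.48 with a limma adjusted p of 0.0148. In bulk liver, more cells that express a gene and more RNA per cell cannot be told apart. Without STAM-NON 1 the difference was 5.17 with a limma adjusted p of 0.00734. The call was kept under 18 of 20 alternatives and was lost with no filter on dim probes, at a limma adjusted p of 0.0536, and with the slide row as a block, at 6.42 and a limma adjusted p of 0.217.

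Cidea in STAM-INS lay between the other groups. It was 3.27 above Normal (SE 1.03, 95% interval 0.92 to 5.63), which missed the threshold at a limma adjusted p of 0.0686. The shared estimate of spread includes STAM-NON 1, and without that array the same difference had a limma adjusted p of 0.00706. In the fit of the STAM-INS and Normal groups alone the limma adjusted p was 0.0104. These were the only 2 of 20 alternatives that passed, and the highest limma adjusted p among them all was 0.262. Over 5 other scalings the difference ranged from 1.58 to 3.40, and 0 of them passed. Against STAM-NON, Cidea in STAM-INS differed by -3.27 (SE 1.03, 95% interval -5.63 to -0.91), with an unadjusted limma p of 0.0124 and an adjusted p of 0.477. All 3 STAM-INS mice were below all 3 STAM-NON mice, and without STAM-NON 1 the difference was -1.90 with a limma adjusted p of 0.637. Of the named comparisons for Cidea, only that of STAM-NON with Normal therefore passed when all arrays were used.

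**Figure D2:**
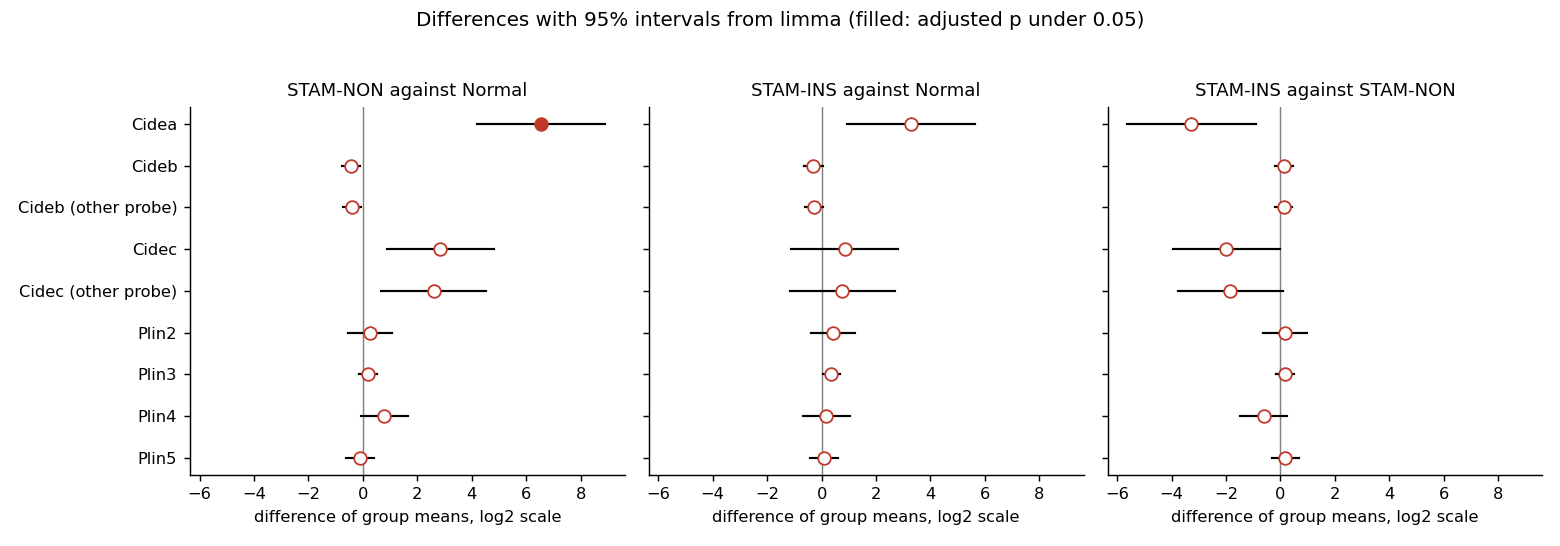
Difference of group means on the log2 scale (x axis) for the 9 tested probes in the 3 comparisons, with 95% intervals from limma as lines. Filled points passed a limma adjusted p of 0.05, which was the case for Cidea in STAM-NON against Normal alone, at 6.54.

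Some markers of adipocytes were high on STAM-NON 1, the array with the highest Cidea, and others were not. Of 7 brown adipocyte markers, 6 were well above background on that array, and 3 to 5 on each of the other 8. Of all spots, 59.3% were well above background on that array, and 46.2% to 65.0% on the others. Ucp1 was at 0.84 there and not well above background on any other array. Cox8b, a muscle and brown fat subunit of cytochrome c oxidase, was at 1.29 there and at -3.32 or lower elsewhere. Adipoq, which encodes the adipocyte hormone adiponectin, was at -1.31 there and at -4.33 or lower elsewhere, while Dio2 and Lep, further markers of brown and white adipocytes, were not well above background on any of the 9 arrays. Elovl3, a fatty acid elongase of brown fat and liver, went the other way, at -0.73 on STAM-NON 1, the lowest of the 9 arrays, and at 2.58 to 3.86 in Normal. The summed signal of the list, relative to each array's 75th percentile, was 10.1 to 18.7 on Normal arrays, 10.9 to 21.3 on STAM-INS arrays and 5.25 to 13.4 on STAM-NON arrays. Elovl3 and Cox7a1 held most of these sums, with Elovl3 at 77.6% on Normal 3 and Cox7a1 at 55.2% on STAM-NON 1, so the sums say little about the other markers. Relative to Normal, Cox7a1 rose by 0.84 and Zic1 fell by 0.70 in STAM-INS (limma adjusted p 0.0376 and 0.0350), where 13.6% of all probes were called. In STAM-NON against Normal, 0 of 3 tested markers were called (15.6% of all probes). The part of adipocyte RNA in the Cidea value of STAM-NON 1 was not tested. On STAM-NON 2 and 3, where Ucp1 was at -5.70 and -5.25, Cidea was 5.13 and 5.22 above the Normal mean. Of 8 white adipocyte markers, 6 were well above background on STAM-NON 3, as on STAM-NON 1, and 3 on STAM-NON 2. Of all spots, 63.1%, 59.3% and 47.8% were well above background on STAM-NON 3, 1 and 2.

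**Figure D3:**
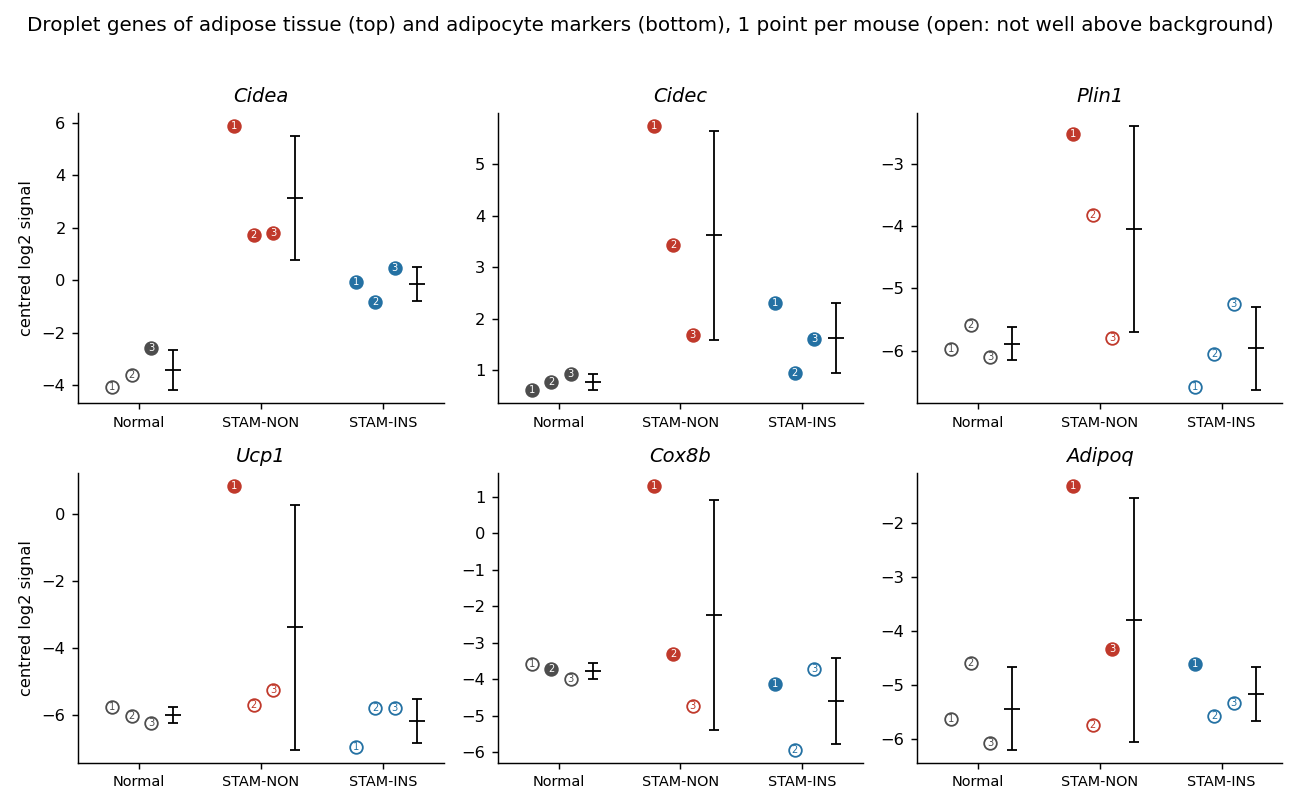
Centred log2 signal (y axis, log2 scale, a separate range per gene) of Cidea, Cidec and Plin1 above and of the adipocyte markers Ucp1, Cox8b and Adipoq, chosen after their values were seen, below. Points are mice by number, open points were not well above background, and bars are means with SD (n = 3). STAM-NON 1 is the highest array in all 6 panels, whereas Elovl3, a marker not shown, was lowest on that array, at -0.73. On STAM-NON 2 and 3 Cidea was at 1.72 and 1.80 and Ucp1 at -5.70 and -5.25. A link between these values was not tested. Adipoq was well above background on STAM-NON 1, STAM-NON 3 and STAM-INS 1, the arrays with the most spots well above background.

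Of 8 white adipocyte markers, 3 were tested and 1 was called in STAM-NON against Normal, beside 15.6% of all tested probes. Fabp4, a fatty acid carrier of adipocytes that macrophages also express, rose by 2.85 in STAM-NON relative to Normal (limma adjusted p 0.0345), and 0 were called in STAM-INS against Normal. The Fabp4 call was kept under 13 of 21 alternatives and was lost without STAM-NON 1, at 2.73 and a limma adjusted p of 0.0932, and also without STAM-NON 3 and without each Normal array. The summed signal of the list was 3.74 to 4.98 on Normal arrays, 8.41 to 26.1 on STAM-INS arrays and 10.5 to 46.8 on STAM-NON arrays, and Fabp4 alone held 55.7% to 95.6% of it. Without Fabp4 the sum was 4.75 on STAM-NON 1 and 1.06 to 3.73 on the other arrays. Of the 8 markers, 6 were well above background on STAM-NON 1, STAM-NON 3 and STAM-INS 1, and 3 on each of the other arrays. The same 3 arrays had the most spots of any kind well above background, at 59.3%, 63.1% and 65.0%. The other arrays had 46.2% to 51.1%, and the marker counts were not adjusted for this.

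Cidec, also known as Fsp27, which merges droplets into the single large droplet of white adipocytes, was read from 2 starts in the reference, and the windows around them are shown because Cidec had the second largest difference in STAM-NON. Both lie on the minus strand of chromosome 6 in GRCm38.p6, at chr6:113435711-113436010 and chr6:113434715-113435014, and run from 250 bases before to 50 bases after the RefSeq start. Capitals mark matches on either strand to AGGTCA, the half-site read by PPAR and related nuclear receptors, to its direct repeat with any base between the copies, and to CACGTG, an E-box core, and neither Cidec window holds any of them.
Cidec, upstream start: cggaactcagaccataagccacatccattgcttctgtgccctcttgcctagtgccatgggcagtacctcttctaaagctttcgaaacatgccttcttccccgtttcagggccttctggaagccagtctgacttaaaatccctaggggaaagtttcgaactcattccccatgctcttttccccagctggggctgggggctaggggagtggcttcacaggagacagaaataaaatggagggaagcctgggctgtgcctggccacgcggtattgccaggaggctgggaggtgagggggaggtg
Cidec, downstream start: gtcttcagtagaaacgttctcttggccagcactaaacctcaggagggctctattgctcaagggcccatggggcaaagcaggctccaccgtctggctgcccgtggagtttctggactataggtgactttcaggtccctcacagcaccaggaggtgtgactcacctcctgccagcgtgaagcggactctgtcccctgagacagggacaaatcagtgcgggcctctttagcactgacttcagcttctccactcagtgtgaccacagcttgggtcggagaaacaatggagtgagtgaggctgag

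Cidec had a centred log2 signal of 5.74, 3.44 and 1.68 in STAM-NON mice 1, 2 and 3. In STAM-INS mice it was 2.31, 0.95 and 1.62, and in Normal mice 0.62, 0.78 and 0.93. Every STAM mouse was above every Normal mouse, the STAM groups overlapped, and the STAM-NON mice were spread over a far wider range than the Normal mice. The Normal mean was 0.78 ± 0.16, the STAM-INS mean 1.63 ± 0.68 and the STAM-NON mean 3.62 ± 2.03 (SD, n = 3 each). Cidec was 2.84 above Normal in STAM-NON (SE 0.86, 95% interval 0.87 to 4.81), which just missed the threshold at a limma adjusted p of 0.0568. It passed under 5 of 21 alternatives, among them without STAM-NON 3, at 3.81 and a limma adjusted p of 0.0279. Without STAM-NON 1 the difference was 1.78 with a limma adjusted p of 0.0897. The other probe of Cidec gave 2.60 (limma adjusted p 0.0692), so both probes placed STAM-NON above Normal on every array.

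Between the STAM groups, Cidec in STAM-INS differed by -1.99 from STAM-NON (95% interval -3.96 to -0.02), with an unadjusted limma p of 0.0480 and an adjusted p of 0.566. This rested in large part on 1 mouse, since the difference was -0.93 without STAM-NON 1. Against Normal, Cidec in STAM-INS differed by 0.85 (95% interval -1.12 to 2.82, limma adjusted p 0.519), although all 3 STAM-INS mice were above all 3 Normal mice. The other probe gave -1.84 against STAM-NON and 0.76 against Normal.

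Plin1, the perilipin of adipocytes that holds back lipolysis until it is phosphorylated, was well above background on 1 of 9 arrays, STAM-NON 1, at -2.52. STAM-NON 2 and 3 were at -3.82 and -5.79. STAM-INS arrays were at -6.58, -6.06 and -5.26 and Normal arrays at -5.97, -5.59 and -6.11, none of them well above background. Plin1 was therefore not tested, and its values overlapped between all groups. No fold is given for Plin1, because only 1 of the STAM-NON arrays was well above background and the STAM-NON mean is in large part background signal.

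Cideb, the CIDE protein of hepatocytes and enterocytes, was the one member whose STAM arrays all lay below the Normal arrays. Its centred log2 signal was 6.96, 7.29 and 6.75 in STAM-NON, 7.14, 7.06 and 7.22 in STAM-INS and 7.34, 7.51 and 7.47 in Normal. All 6 STAM mice were below all 3 Normal mice, whereas the STAM groups overlapped. Relative to Normal, STAM-NON differed by -0.44 (SE 0.15, 95% interval -0.78 to -0.10, limma adjusted p 0.0770) and STAM-INS by -0.30 (95% interval -0.64 to 0.04, limma adjusted p 0.201). Neither passed the threshold, and the former passed under 3 of 21 alternatives, among them without STAM-NON 2, at -0.59 and a limma adjusted p of 0.0183. The former was -0.42 without STAM-NON 1, at a limma adjusted p of 0.166. STAM-INS differed from STAM-NON by 0.14 (95% interval -0.20 to 0.48, limma adjusted p 0.829), a sign that turned to -0.01 with arrays centred on spike-ins. The other probe gave -0.40, -0.28 and 0.12 in the same order. Arrays without overlap on the lower side were common here, at 27.4% of all tested probes for STAM-NON and 28.4% for STAM-INS.

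Plin2, the main droplet coat of hepatocytes, whose protein is stable when bound to droplets, spread most within STAM-NON. It was 7.91, 7.46 and 6.33 in STAM-NON mice 1, 2 and 3, 7.21, 7.37 and 7.59 in STAM-INS and 6.78, 6.95 and 7.15 in Normal. STAM-NON thus held both the highest and the lowest of the 9 arrays, while all 3 STAM-INS mice were above all 3 Normal mice. Relative to Normal, STAM-NON differed by 0.27 (95% interval -0.53 to 1.08, limma adjusted p 0.603) and STAM-INS by 0.43 (95% interval -0.38 to 1.24, limma adjusted p 0.426), and STAM-INS differed from STAM-NON by 0.16 (95% interval -0.65 to 0.96, limma adjusted p 0.926). The first became -0.07 without STAM-NON 1 and the last -0.30 without STAM-NON 3. The promoter of Plin2 is shown as that of the brightly expressed droplet coat, since PPAR is a known regulator of the gene. It lies on the minus strand of chromosome 4 in GRCm38.p6, at chr4:86670010-86670309, from 250 bases before to 50 bases after the start. Capitals mark TGACCT, the reverse complement of AGGTCA, which begins 218 bases before the start. They also mark CACGTG, which begins 4 bases before the start and runs across it.
Plin2: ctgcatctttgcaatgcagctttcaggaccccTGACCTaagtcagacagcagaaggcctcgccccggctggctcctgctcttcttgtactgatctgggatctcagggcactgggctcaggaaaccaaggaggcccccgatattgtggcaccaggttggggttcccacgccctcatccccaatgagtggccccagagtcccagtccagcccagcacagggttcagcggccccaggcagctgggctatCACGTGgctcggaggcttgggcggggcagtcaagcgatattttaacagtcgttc

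Windows of the same kind were found for 7 of the 8 genes, all but Cidea, with 9 windows in all. AGGTCA occurred on either strand in 3 of these 9, that of Plin2 and both of Plin5, and in 16.3% of all 32851 windows of the RefSeq promoter table. CACGTG occurred in 1 of 9, that of Plin2, and in 7.15% of all windows. The direct repeat of AGGTCA with any base between the copies, which also counts under AGGTCA, occurred in 0 of 9 and in 0.0396% of all windows. A match of letters is a description of the window, and the array carries no measure of binding.

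Plin3, a perilipin that moves from the cytosol onto newly formed droplets, was 4.62, 4.24 and 4.33 in STAM-NON, 4.60, 4.70 and 4.41 in STAM-INS and 4.21, 4.34 and 4.09 in Normal. All STAM-INS mice were above all Normal mice, by 0.36 on average (95% interval 0.03 to 0.68), with an unadjusted limma p of 0.0341 and an adjusted p of 0.123. STAM-NON overlapped both groups, at 0.18 above Normal (95% interval -0.14 to 0.50, limma adjusted p 0.377). That difference was 0.07 without STAM-NON 1 (limma adjusted p 0.758).

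Plin4, a perilipin of adipocytes and muscle with a long repeat that binds the droplet surface, was 2.53, 1.39 and 2.78 in STAM-NON, 1.38, 1.86 and 1.62 in STAM-INS and 1.27, 1.05 and 2.02 in Normal. STAM-NON 1 and 3 were above every other array, and STAM-NON 2 lay among the rest. The difference from Normal was 0.79 (SE 0.38, 95% interval -0.08 to 1.66, limma adjusted p 0.175), and 1.21 without STAM-NON 2, at a limma adjusted p of 0.0278. It was 0.64 without STAM-NON 1, at a limma adjusted p of 0.362. STAM-INS differed by 0.17 from Normal (95% interval -0.70 to 1.05) and by -0.62 from STAM-NON (95% interval -1.49 to 0.26), with limma adjusted p of 0.781 and 0.681.

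Plin5, which ties droplets to mitochondria in tissues that burn fat, was 5.27, 5.70 and 5.35 in STAM-NON, 5.45, 5.67 and 5.74 in STAM-INS and 5.95, 5.10 and 5.58 in Normal. The groups overlapped throughout, and Normal mice held both the highest and the lowest array. Relative to Normal, STAM-NON differed by -0.10 (95% interval -0.61 to 0.40) and STAM-INS by 0.08 (95% interval -0.43 to 0.58), and STAM-INS differed from STAM-NON by 0.18 (95% interval -0.33 to 0.69), with limma adjusted p of 0.761, 0.837 and 0.852. The sign of the first turned under 3 of 5 other scalings and that of the second under 1 of 5. The first was -0.02 without STAM-NON 1 (limma adjusted p 0.968).

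Seen mouse by mouse, the STAM-NON livers differed from each other more than the STAM-INS livers did, with a larger SD for each of the 8 genes, a difference in spread that was not tested. STAM-NON 1 was the highest of all 9 arrays for Cidea, Cidec, Plin1 and Plin2, and its differences from the Normal mean were 9.28, 4.96, 3.37 and 0.95. STAM-NON 2 came next within its group for Cidec, Plin1 and Plin2, at 2.67, 2.06 and 0.50. STAM-NON 3 was at 5.22 for Cidea and 1.34 for Plin4, but at -0.63 for Plin2 and 0.90 for Cidec, the lowest STAM-NON mouse for the latter pair. The SDs in STAM-NON were 2.37 for Cidea, 2.03 for Cidec, 0.82 for Plin2 and 0.74 for Plin4, while the median probe had an SD of 0.16 in Normal, 0.18 in STAM-INS and 0.23 in STAM-NON.

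**Figure D4:**
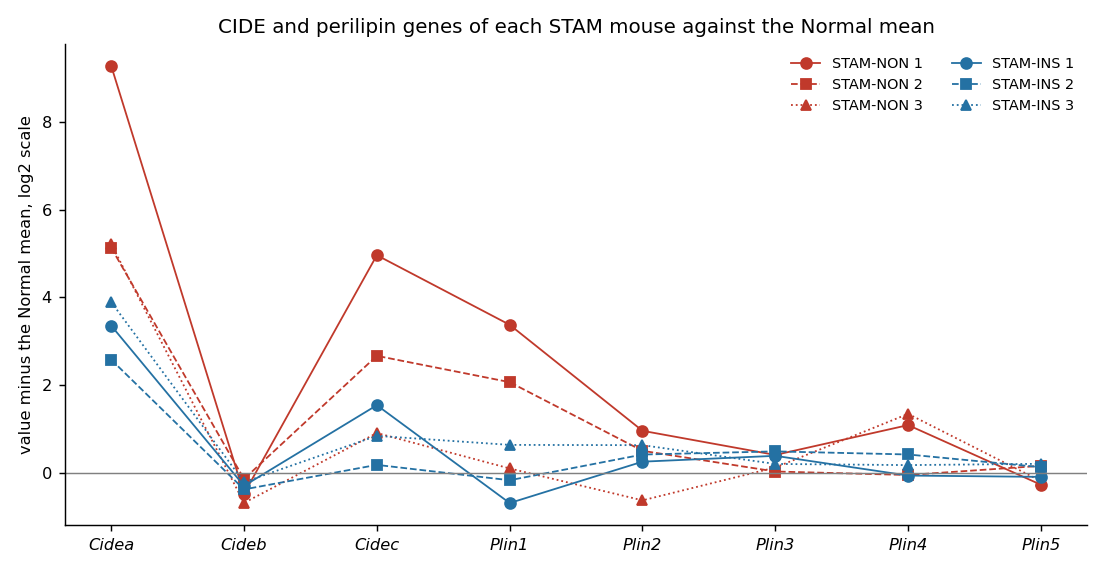
Centred log2 signal minus the Normal mean (y axis, log2 scale) for the 8 genes (x axis) in each STAM mouse, with 1 line per mouse, red for STAM-NON and blue for STAM-INS. All 6 mice lie above 0 for Cidea and below 0 for Cideb, and STAM-NON 1 reaches 9.28 for Cidea and 4.96 for Cidec.

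The other genes of droplet biology were taken from 4 lists with 32 tested genes. Relative to Normal, 4 of the 32 were called in STAM-NON (12.5%, beside 15.6% of all probes) and 8 in STAM-INS (25%, beside 13.6%). Of 8 genes of droplet formation and growth, 1 rose and 1 fell in both STAM-NON and STAM-INS against Normal. Acsl3, which activates fatty acids at nascent droplets, rose by 0.98 in STAM-NON and by 0.96 in STAM-INS (limma adjusted p 0.0123 and 0.0100). Dgat2, which makes triglyceride, fell by 0.64 and by 0.63 (limma adjusted p 0.0206 in both), and lost the threshold in both with quantile normalisation and with spike-in centring. The median of the list was -0.15 in STAM-NON and -0.36 in STAM-INS.

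Of 7 genes of droplet lipolysis, 0 were called in STAM-NON against Normal and 1 in STAM-INS against Normal. Pnpla3, a lipase-like protein of hepatocyte droplets, was at -1.90, -2.15 and -2.25 in STAM-INS, and all 3 Normal arrays left it not well above background. Relative to Normal it was at least 3.48-fold higher in STAM-INS (limma adjusted p 0.0361), and by its other probe at least 4.12-fold (limma adjusted p 0.0248). The probe passed the filter on dim probes through STAM-INS alone. Its call was lost with no filter, without each STAM-INS and each Normal array and after normexp, where the difference was 0.67, below the stated bound. Hilpda, an inhibitor of the lipase Atgl, was 1.18 and 1.21 above Normal in STAM-NON and STAM-INS, with a limma adjusted p of 0.0561 and 0.0562. Pnpla2, which encodes Atgl, differed by -0.36 and -0.74, with limma adjusted p of 0.393 and 0.118. The median of the list was -0.05 in STAM-NON and -0.27 in STAM-INS.

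Of 8 other droplet surface proteins, 7 were tested, with 1 lower in STAM-NON and 1 higher in STAM-INS. Aup1, which recruits ubiquitin enzymes to droplets, fell by 0.53 in STAM-NON (limma adjusted p 0.0289) and kept the call in 2 of 5 other scalings. Nsdhl, an enzyme of cholesterol synthesis, rose by 1.64 in STAM-INS (limma adjusted p 0.0120), and by 1.79 on its other probe (limma adjusted p 0.00806). In STAM-NON it was 0.98 above Normal (limma adjusted p 0.0530), and its other probe passed at 1.11 (limma adjusted p 0.0367). The largest difference that missed the threshold was that of Hsd17b11 in STAM-INS, at -1.01 (limma adjusted p 0.104).

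Of 10 regulators of droplet genes, 1 was lower in STAM-NON than in Normal, and 3 were lower and 1 higher in STAM-INS. Mlxipl, which encodes the glucose-sensing factor ChREBP, fell by 1.17 in STAM-NON and by 0.62 in STAM-INS (limma adjusted p 0.00860 and 0.0442). Its other probe did not pass, at -0.29 and -0.24. Ppara, the fatty acid receptor that drives Plin2 and oxidation genes, fell by 0.85 in STAM-INS (limma adjusted p 0.0240), and Foxo1 fell by 0.63 (limma adjusted p 0.0335), a call that none of 5 other scalings kept. Ppard rose by 0.75 in STAM-INS (limma adjusted p 0.0397). Pparg, the known driver of Cidea, Cidec and Plin1 in fat, was 2.91, 2.70 and 2.48 in STAM-NON, 2.25, 2.60 and 2.27 in STAM-INS and 2.54, 2.31 and 2.42 in Normal. Its groups overlapped, and relative to Normal STAM-NON differed by 0.28 and STAM-INS by -0.05 (limma adjusted p 0.227 and 0.851). In STAM-INS against STAM-NON, 0 genes of these 4 lists were called. The calls against Normal differed in how many alternatives kept them. For STAM-NON, Acsl3 and Mlxipl kept theirs under 19 of 21 alternatives, Dgat2 under 13 and Aup1 under 9. Without STAM-NON 1, Dgat2 was -0.54 and Aup1 -0.44, with limma adjusted p of 0.0573 and 0.0785. Both calls were also lost without each Normal array, and that of Aup1 without STAM-NON 3. For STAM-INS, Nsdhl kept its call under 20 of 21, Acsl3 under 19, Ppara under 13, Dgat2 and Mlxipl under 11, Ppard under 10 and Foxo1 under 8, and Pnpla3 under 10 of 20.

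**Figure D5:**
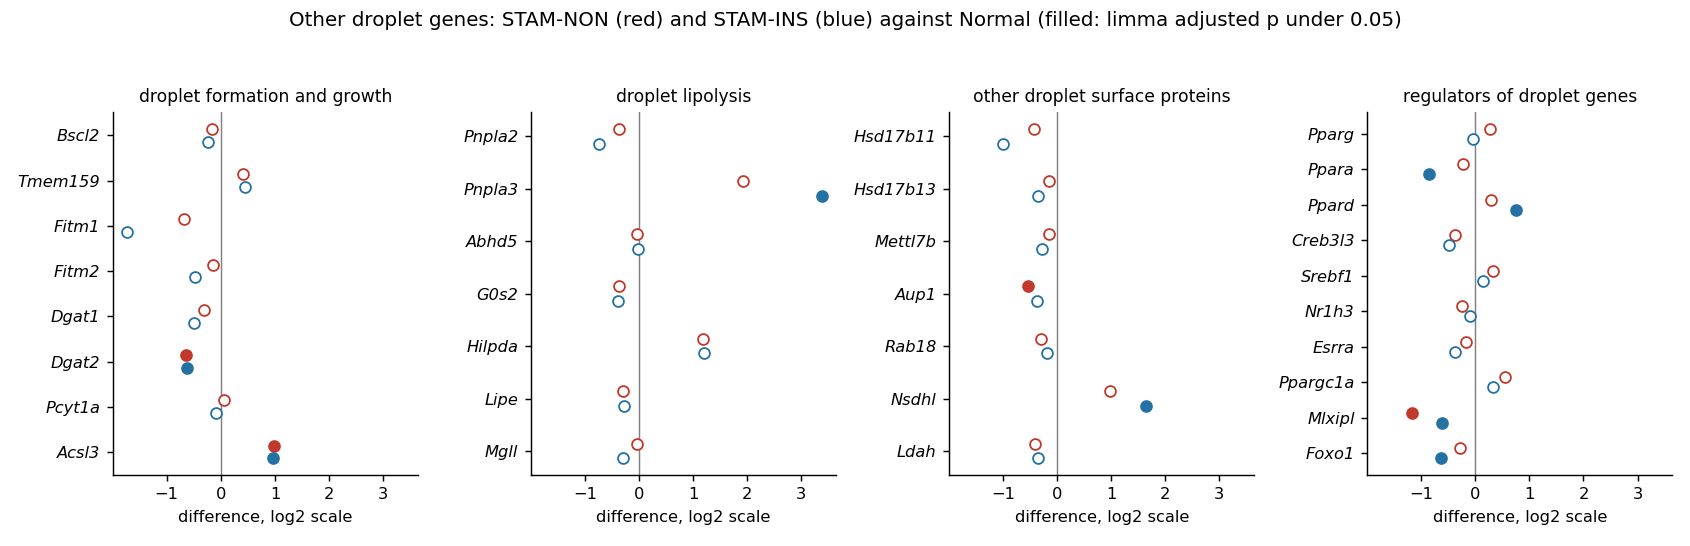
Difference from Normal on the log2 scale (x axis) of each tested gene of the 4 lists, in red for STAM-NON and in blue for STAM-INS, with filled points for a limma adjusted p under 0.05. Most points lie within 1 of 0, Pnpla3 in STAM-INS is the farthest to the right, and Acsl3, Dgat2 and Mlxipl are filled in both colours.

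Markers of other cells that a fatty or tumour-bearing liver can hold also differed between the groups, in the same RNA as the members. Of 7 macrophage markers, 4 were called as higher in STAM-NON than in Normal, beside 6.36% of all tested probes. In STAM-INS 3 were called as higher, where 13.6% of all tested probes were called in either direction. Trem2 was at 2.93 and 2.62 (limma adjusted p 0.0123 and 0.0137), Cd5l and Clec4f were called in both and Gpnmb in STAM-NON. The summed signal of the 7 markers was 79.8 to 119.0 on Normal arrays, 130.2 to 264.7 on STAM-INS arrays and 154.2 to 252.7 on STAM-NON arrays. Gpnmb entered the test through STAM-NON alone, being well above background on 3 STAM-NON, 1 STAM-INS and 0 Normal arrays. Set against the lowest detected signals of the Normal arrays, the lower bound of its rise there came to 4.34-fold. The Gpnmb call was lost after normexp and with no filter on dim probes. The lowest difference among 5 other scalings was 1.21, below that bound, which is 2.12 on the log2 scale. Of 3 tested markers of liver tumours, Afp, Cd24a and Spp1 were called in STAM-NON (6.36% of all probes called as higher), at 3.11, 2.35 and 1.51. Afp was also called in STAM-INS (13.6% of all probes called), at 3.30. No marker of stellate cells (8 tested) or lymphocytes (3 tested) was called in limma. Among hepatocyte markers, 1 of 8 was lower in both STAM groups, Cps1, at -0.66 in each, beside 15.6% and 13.6% of all probes called in either direction. Without STAM-NON 1, of these markers only Trem2 was still called in STAM-NON, at 2.74 (limma adjusted p 0.0392). Cd5l was then at 1.17, Clec4f at 0.91, Afp at 2.92, Cd24a at 2.17, Spp1 at 1.06 and Cps1 at -0.66, with limma adjusted p between 0.0788 and 0.112, and Gpnmb missed the threshold at a limma adjusted p of 0.0541. The calls of Cd5l, Clec4f, Afp, Cd24a, Spp1 and Cps1 were also lost without STAM-NON 3. Those calls and that of Gpnmb were lost without each Normal array too, so such a loss is not particular to STAM-NON 1. The part of these cells in the member values was not tested.

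By the root mean square difference of centred profiles over the 9 arrays, the genes whose pattern was most like that of Cidea were Glod5 (1.35), Cyp2b13 (1.36), Rbm24 (1.37), Gprc5b (1.40) and Psat1 (1.46), beside a range of 6.54 between the group means of Cidea. Gprc5b, which encodes an orphan receptor, had means of -5.66 ± 0.84 for Normal, -1.82 ± 0.54 for STAM-INS and 0.16 ± 0.42 for STAM-NON (SD, n = 3 each), an order of groups shared with Cidea but with a smaller spread in STAM-NON. Psat1, an enzyme of serine synthesis, had -4.29 ± 0.21, -0.77 ± 0.37 and -0.08 ± 1.01 in the same order. The lowest detected signal of the Normal arrays was -4.09 on Normal 3 and higher on the others. The Normal means of Gprc5b and Psat1, and those of Glod5 (-5.68) and Rbm24 (-5.99), lay below it. They therefore stand for background and not for a measured level. The Normal mean of Cyp2b13, at -4.03, was close to that signal.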

How the data were processed

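Liver RNA of 9 mice, 3 each of STAM-NON, STAM-INS and Normal, was hybridised to 1-colour Agilent arrays, and the sample labels gave groups and replicate numbers. The authors deposited the output of Agilent Feature Extraction 11.5.1.1, in which spot intensity is linear, background-subtracted and not normalised between arrays. The labels name a FAVORGEN extraction kit and the methods a Qiagen kit. The array design uses mm9; probes were named by accession through a RefSeq table of GRCm38.p6, which matched 27656 of 55681 probes, and promoter sequences are from RefSeq on that build. Spots with an outlier flag and control spots were left out and spots of a probe were averaged.

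Each array was centred by taking its 75th percentile from the log2 processed signal. Probes entered the test when a share of 0.5 or more of their spots passed the background flag on all 3 arrays of any group, which left 26277. The R 4.3.3 package limma 3.58.1 (lmFit and eBayes, two-sided) was fitted to all 9 arrays, with 6 residual degrees of freedom and Benjamini-Hochberg adjustment over all tested probes. The brightest probe stood for a gene. Where a whole group lay in the background, the fold is a bound: on each dim array the probe took its own signal or the lowest detected signal of that array, whichever was higher, before the means were compared. Precision is limited by the number of arrays. The named genes were all members, genes of the other lists past the threshold and otherwise up to 3 per list, and the 5 genes nearest to a called member. The fit was tested on simulated arrays with known changes. Members and lists were chosen with earlier results of these data known. Samples with equal numbers did not deviate together, so the numbers were not used as pairs.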

Additional observations from a re-analysis of the deposited data

How the results depend on the processing

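With 3 mice per group and probes such as Plin1 and Cidea near background in Normal, small differences were not detectable here. Among single member differences, 535 kept direction and side of the threshold under the alternatives, 13 passed it newly, 2 lost it (both Cidea in STAM-NON against Normal) and 14 changed sign. For STAM-NON against Normal, 4090 probes passed. This count was 242 with no filter on dim probes, 1962 with the replicate block, 15 with the slide row as a block, 2139 with only these groups, and 864 to 5941 when 1 array was left out. STAM-NON lay in row 1 and Normal in row 2, so that only STAM-INS, which lay in both, separated row from group. Called members numbered 1, and 3 after normexp, 2 with median centring, 0 with no filter, 0 with the slide row, 3 with trend and robust moderation, and 1 to 3 without 1 array. For STAM-INS against STAM-NON, 25 probes passed, and 7 with no filter, 6 with probes detected on every array, 6 with the replicate block, 13 with the slide row, 8 with only these groups and 10 to 56 without 1 array, with 0 members in each. For STAM-INS against Normal, 3586 probes passed, and 1973 with spike-in centring, 565 with no filter, 1801 with the replicate block, 2108 with the slide row and 1143 to 4398 without 1 array. Called members numbered 0, and 1 (Cidea) with only these groups and 0 to 1 without 1 array. The replicate block changed no call of a member. Same-numbered samples correlated at -0.288 to 0.149.

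The split of calls moved with the scaling. For STAM-NON against Normal it was 1672 higher and 2418 lower, against 1329 and 3101 after normexp, 2156 and 955 with the percentile over detected probes, 1539 and 1425 after quantile normalisation, and 2443 and 438 with spike-in centring. For STAM-INS against Normal it was 1365 and 2221, against 1733 and 1234 with the percentile over detected probes and 1276 and 697 with spike-in centring. Signs turned for small differences. Plin5 in STAM-NON against Normal was 0.063 with the percentile over detected probes, 0.15 after quantile normalisation, 0.16 with spike-in centring and 0.15 with the slide row, and ranged from -0.33 to 0.10 without 1 array. Plin2 there ranged from -0.067 (without STAM-NON 1) to 0.73 (without STAM-NON 3). In STAM-INS against STAM-NON, Cideb and its other probe were -0.011 and -0.032 with spike-in centring, and Plin2 was -0.023 with the slide row and ranged from -0.30 to 0.50 without 1 array. In STAM-INS against Normal, Plin4 and Plin5 were -0.0018 and -0.098 with median centring, and without 1 array ranged from -0.026 to 0.46 and from -0.15 to 0.28. The cause was not tested.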
